A study of Mus musculus with 81 samples.

Results

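Described here are 8 genes of the piRNA pathway, Piwil2, Piwil4, Tdrd1, Tdrd5, Tdrd9, Mov10l1, Mael and Asz1, as seen through the long terminal repeat (LTR) loci that lie inside them. The members were chosen by name, and every LTR locus wholly inside the GENCODE gene body of a member on GRCm38 was taken, which gave 143 of the 970384 loci measured. Of these, 8 carried the same values as another locus of the same intron in every library and were counted once with it, so that 135 distinct loci remained. At least 1 LTR locus was found in 24367 genes, called host genes here, and the 8 members are among them.

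PIWI proteins are guided by short piRNAs to the transcripts of transposable elements, including endogenous retroviruses, which are cut in the cytoplasm and whose DNA is methylated in the nucleus. In the mouse this pathway runs in male germ cells before birth, when DNA methylation is being set anew, and its loss leads to transposon expression and male sterility. Tudor domain proteins assemble the PIWI proteins in granules near mitochondria, and RNA helicases prepare the piRNA precursors.

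RNA was measured in testicular cells sorted from male fetuses at E18.5 (embryonic day) of the OG2 strain, which carries EGFP under the control of Pou5f1 sequences, so that germline cells are green. P4 and P5 are the EGFP-positive germline populations, separated from each other by side scatter, and P6 is the EGFP-negative somatic population. Pregnant F0 dams received 50 nM tributyltin (TBT), an organotin compound, or the solvent DMSO alone, and the F1 and F3 descendants of each arm were compared; F1 fetuses were themselves exposed in the uterus, whereas F3 fetuses were not. In F1 there were 5 DMSO and 7 TBT libraries for P4, 4 DMSO and 7 TBT for P5, and 5 DMSO and 7 TBT for P6, and each F3 population held 4 DMSO and 5 TBT libraries. The labels do not say whether libraries of a group came from separate litters, so that p-values measure the spread between these libraries, which may be partly technical. F1 germline labels are 43-4, 43-5, 44-1, 44-3 and 48-4 for DMSO, and 45-3, 45-4, 45-5, 47-1, 47-3, 47-4 and 47-5 for TBT. What the first part of a label stands for is not given, and libraries that share it were fitted as separate. P4 and P5 libraries that share a label were not paired in the main fits.

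The libraries held between 2824806 and 6304053 LTR reads in F1, between 4104928 and 7760769 in F3 P6 cells, and between 246520 and 8161548 in F3 germline cells. The sort labels were checked on 3 germ cell markers (Dazl, Ddx4, Pou5f1) and 15 somatic markers with LTR loci of their own. The germ cell markers summed to between 1324 and 2180 rpm (reads per 1000000 LTR reads of the library, with no TMM scaling) in F1 germline libraries and to between 0.590 and 8.88 rpm in F1 P6 libraries, whereas the somatic markers summed to between 53.2 and 267 rpm and between 1324 and 1578 rpm, respectively. In 7 F3 germline libraries over 10% of the LTR reads lay outside genes, which was not seen in the other libraries. These were TBT libraries 5 and 9 of P4 cells (13.4% and 14.3%), DMSO libraries 1 and 2 of P5 cells (24.7% and 29.3%), and TBT libraries 5, 8 and 9 of P5 cells (33.8%, 12.1% and 12.5%). In F3 P6 cells, DMSO libraries 3 and 4 held 22.9 and 33.9 rpm of the germ cell markers, against 0.831 to 3.71 rpm in the other 7. For the members' summed levels, their correlations and their introns in F3, values without these libraries are also given, whereas single loci and the other pathway genes of F3 were fitted with all libraries only.

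The members lie on 7 chromosomes. Piwil2 (chr14:70372477-70429383, minus strand), which encodes a cytoplasmic PIWI protein, held 19 distinct loci. Piwil4 (chr9:14696230-14740733, minus strand), which encodes the nuclear PIWI protein of fetal germ cells, held 15. The Tudor domain genes Tdrd1 (chr19:56826209-56870012, plus strand), Tdrd5 (chr1:156255296-156303664, minus strand) and Tdrd9 (chr12:111971559-112068854, plus strand) held 9, 14 and 38. Mov10l1 (chr15:88982909-89055152, plus strand), which encodes an RNA helicase that binds piRNA precursors, held 27. Mael (chr1:166201201-166238747, minus strand), which encodes a protein of the germ cell granules, held 6. Asz1 (chr6:18050964-18109061, minus strand), which encodes a protein on the outer mitochondrial membrane, held 7. None of the 135 overlapped an exon of the transcript model used: 131 lay in 55 introns, and 4 lay in Piwil4 beyond the model.

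In germline cells, reads at these loci went with the intron and not with the element. In P6 cells, where reads were few, this did not hold in all introns. In intron 13 of Tdrd9 the lowest locus had 7.25% of the highest in F1 P6 cells and 24.2% in F3 P6 cells. In the 26 introns that held 2 or more distinct loci, the lowest locus had a median of 100% of the highest in F1 P4 cells and 99.7% in F1 P5 cells, and no intron of these populations was under 95.9%. Loci of very different lengths therefore carried the same value. The shortest loci of 5 members, each under 50 bases, are printed here because they show this best; they are given on the plus strand of GRCm38 as in the RefSeq genome.
Piwil2, MERVL-int, intron 14, chr14:70396384-70396421: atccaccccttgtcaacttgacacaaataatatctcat
Tdrd9, ORR1A3-int, intron 13, chr12:112021749-112021777: tatttgtgtcaggttgacaaggggtggat
Mov10l1, RLTR20C1_MM, intron 22, chr15:89028386-89028432: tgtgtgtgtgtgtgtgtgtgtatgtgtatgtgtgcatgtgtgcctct
Mael, MT2B2, intron 7, chr1:166224515-166224533: ccataagagactaaggagc
Asz1, ORR1D1, intron 10, chr6:18060596-18060627: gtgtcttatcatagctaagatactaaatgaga

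The 19 bases of the Mael MT2B2 locus had 692 ± 72.7 CPM (SD, n = 12) in F1 P4 cells, and the 262-base ORR1F locus of the same intron (chr1:166215601-166215862) had 692 ± 72.7 CPM. The values are CPM, counts scaled to a common library size by the authors with the trimmed mean of M values (TMM). The Piwil2 and Tdrd9 sequences above are near copies, as 29 bases of the Piwil2 locus differ at 1 position from the reverse complement of the Tdrd9 locus, yet they had 105 ± 20.6 and 68.5 ± 21.3 CPM. Each was close to the rest of its own gene, whose means per locus were 99.7 and 68.8 CPM. In F3 P5 cells the lowest locus had a median of 98.0% of the highest and as little as 59.5%.

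Because of this, each member is described by its mean level per distinct locus, and tests were run on the sum over its distinct loci with limma, on log2(sum + 1 unit), where 1 unit is the median value of 1 read. The host genes with a mean of at least 5 units entered each test, with Benjamini-Hochberg adjustment over them and a threshold of 0.05. In both germline populations all 8 members passed this filter. Read numbers given for a member are sums over its distinct loci. Where loci of an intron hold the same reads, these enter once per locus, so that such numbers exceed the reads of the gene. A level says how many reads a locus received, and fewer cells of a type cannot be told apart from less RNA per cell in these bulk samples.

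Piwil4 held loci with almost no reads. Of its 15 distinct loci, 6 did not pass the filter on single loci: the 4 beyond the transcript model, the RLTR20C2_MM locus of intron 6, which had 0 CPM in all F1 P4 libraries, and the ERVB7_2-LTR_MM locus of intron 10, which had 0.0791 ± 0.274 CPM. The other 4 introns had 64.2 to 78.1 CPM in the same cells. All 120 loci of the other 7 members passed. In addition, 5 distinct Piwil4 loci lie within the antisense gene Gm10706, and whether counting used the strand is not given in the sources used here. Reads of the pair cannot be told apart at those loci.

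All 8 members had their reads mainly in germline cells in F1. In F1, every germline library was above every P6 library for 8 of 8 members, which held for 11.3% of the host genes with any read, and in CPM for 8 of 8 members against 10.9%. Mael ranged from 380 to 715 rpm per locus in germline cells and from 0 to 1.23 rpm in P6 cells. Mov10l1 ranged from 8.88 to 68.3 rpm and from 0 to 0.262 rpm. Summed over its loci, Asz1 had 16 reads in all P6 libraries, at most 0.243 rpm per locus. Of the other 5 members, Tdrd5 had the highest P6 level (1.01 rpm, against 15.2 to 35.4 rpm in germline cells). Its P6 reads were uneven along the gene, with means of 0.795 to 1.16 CPM in introns 13, 14, 16 and 17. Introns 4, 6 and 9 had 0.0465 to 0.170 CPM. Piwil2 (0.875), Tdrd1 (0.469), Piwil4 (0.307) and Tdrd9 (0.227) stayed below 1 rpm in each P6 library. Germline and P6 tables were normalized separately by the authors, so that the levels are set side by side with no test. Of the 16 other piRNA pathway genes with LTR loci, 13 were separated in the same way, as were 3 of 3 germ cell markers and 0 of 15 somatic markers.

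In F3, 2 of 8 members, Tdrd9 and Mael, had every germline library above every P6 library in rpm, against 2.4% of the host genes. In CPM this held for 0 of 8 members, against 1.65%. Without the libraries with over 10% of reads outside genes, a setting chosen after seeing the data that left 11 germline libraries, it held for 8 of 8 members on both scales, against 11% of the host genes in rpm and 12.3% in CPM. The germline libraries of fewest reads held none of some members. TBT library 5 of P4 cells, with 833449 reads, held 0 reads of Piwil2, Piwil4 and Mov10l1. TBT library 5 of P5 cells, with 246520 reads, held 0 reads of Piwil4, Tdrd1 and Asz1. At the lowest level of the DMSO libraries of P4 cells, the depth of the first library would have given 133 reads of Piwil2, 93 of Piwil4 and 138 of Mov10l1, and the same library held 521 reads of Mael and 128 of Asz1. At the lowest level of the DMSO libraries of P5 cells, the second would have given 9 reads of Piwil4, 3 of Tdrd1 and 19 of Asz1, and it held 164 reads of Mov10l1.

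**Figure D1:**
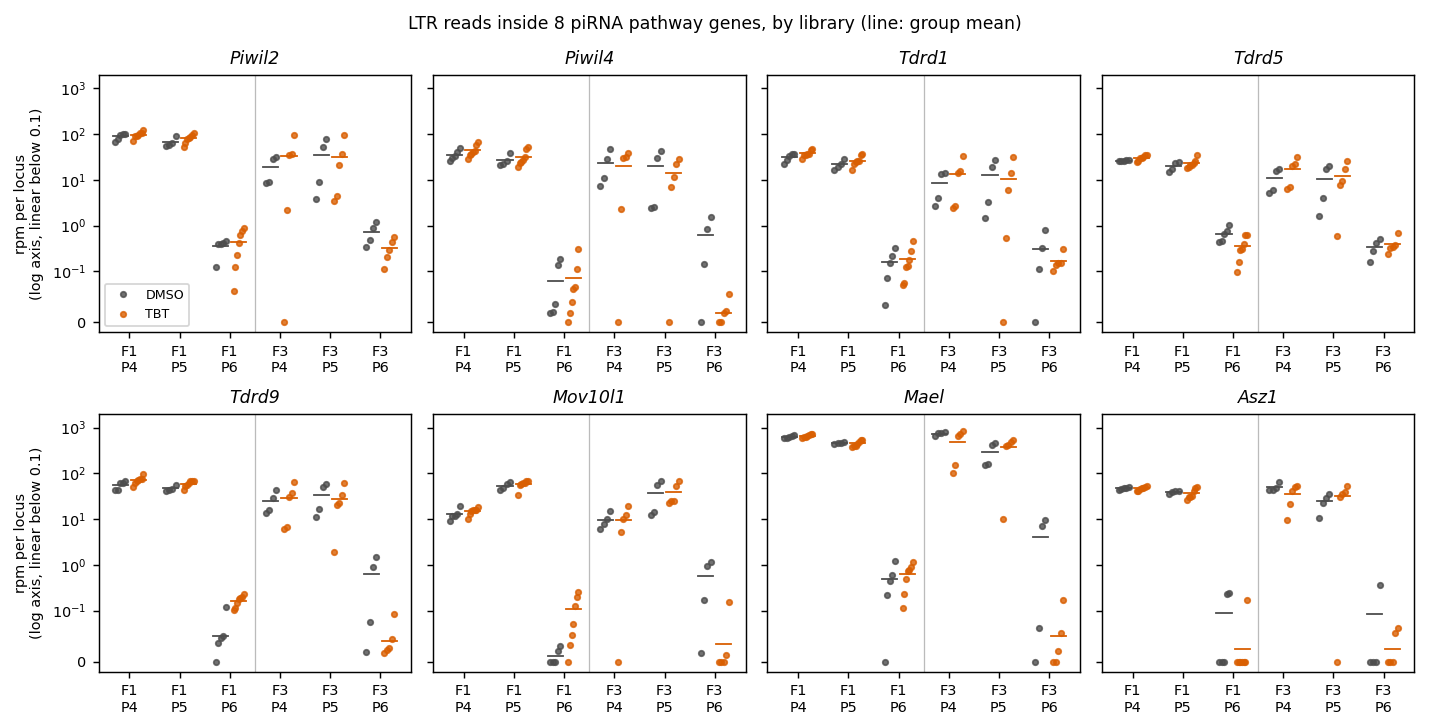
Level in rpm (reads per 1000000 LTR reads) per distinct locus of each member in every library, on a log axis that is linear below 0.1, for F1 and F3 P4, P5 and P6 cells; grey points are DMSO and orange points TBT libraries, and short lines are group means. In F1 the germline libraries lie above all P6 libraries in each panel, Mov10l1 is higher in P5 than in P4 cells, and F3 germline libraries spread down to 0.

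Within the germline the members differed widely in level. In F1 P4 cells Mael stood at 690 ± 72.6 CPM per locus (SD, n = 12) and Piwil2 at 99.7 ± 19.5, and their libraries did not overlap. Tdrd9 (68.8 ± 18.4), Asz1 (49.7 ± 5.80), Piwil4 (43.8 ± 15.6), Tdrd1 (37.3 ± 8.29) and Tdrd5 (30.4 ± 4.94) followed, and each overlapped the next. The mean of Piwil4 includes its 6 loci at or near 0, and its other introns (64.2 to 78.1 CPM) stood above the mean of Asz1. Mov10l1 was the lowest member with 14.9 ± 3.63 CPM, below all Tdrd5 libraries. In F1 P5 cells Mov10l1 stood after Mael and Piwil2 with 53.6 ± 11.6 CPM, where Mael had 436 ± 77.8 and Piwil2 71.8 ± 17.9. Per kilobase of locus, Mael was again first (5006 ± 527 CPM in F1 P4 cells, 3164 ± 565 in F1 P5 cells), and Mov10l1 moved from the eighth place (42.0 ± 10.3) to the fourth (151.5 ± 32.8).

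P5 against P4 cells of F1 gave a difference in all 8 members. Mov10l1 rose, and the other 7 members fell. Mov10l1 had 8.88, 11.49, 11.9, 12.8 and 19.2 rpm per locus in the 5 DMSO libraries of P4 cells and 10.3 to 18.8 (median 15.5) in the 7 TBT libraries. In P5 cells it had 42.3, 48.3, 58.2 and 63.4 rpm in the 4 DMSO libraries and 33.9 to 68.3 (median 60.3) in the 7 TBT libraries. Every P5 library was thus above every P4 library, a difference of 1.87 ± 0.14 on the log2 scale (SE, 3.64-fold, adjusted p = 3.58e-10).

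Mael went the other way with no overlap. It had 599, 600.3, 623, 730.0 and 732 CPM per locus in DMSO libraries of P4 cells and 598 to 789 (median 727) in TBT libraries. In P5 cells it had 398, 428, 448 and 465 CPM in DMSO libraries and 342 to 582 (median 421) in TBT libraries. It was 1.58-fold lower in P5 cells (log2 difference -0.66 ± 0.09, adjusted p = 4.29e-06). Libraries of P4 and P5 cells did not overlap for these 2 of 8 members, against 3.95% of the host genes tested.

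For the other 6 members some P4 and P5 libraries overlapped, with differences of 1.31-fold to 1.61-fold. Tdrd1 fell most (-0.69 ± 0.14, adjusted p = 0.000412), followed by the nuclear PIWI gene Piwil4 (-0.60 ± 0.20, adjusted p = 0.0210) and Tdrd5 (-0.56 ± 0.12, adjusted p = 0.000864). Piwil2 fell by 0.51 ± 0.13 (adjusted p = 0.00245), Asz1 by 0.47 ± 0.12 (adjusted p = 0.00312) and Tdrd9 by 0.39 ± 0.12 (adjusted p = 0.0123). All 8 members passed the threshold, 1 higher and 7 lower, where 24.5% of all host genes were higher and 18.0% lower. The median of the members was -0.54 and that of all host genes tested 0.10. With reads scaled to a common total per library, the median of all host genes was 0.25. Tdrd9 then no longer passed (-0.24, adjusted p = 0.0895), so that 7 members were called. The shares of host genes higher and lower under this scaling are not given here. Leaving out any single library kept all 8 calls.

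Single loci went the same way, as parts of the sums above. Loci of the same intron carry nearly the same value, and the 131 intronic loci lie in 55 introns. Counts of single loci, here and in the comparisons below, are therefore neither separate evidence nor independent measurements. Of the 129 member loci tested, 127 passed. All 27 Mov10l1 loci were higher in P5 cells (1.74 to 2.02 on the log2 scale), and 100 loci of the other members were lower, against 17.0% higher and 20.3% lower among all loci tested. The 2 that did not pass lie in Tdrd9. The 3 with the largest change were Mov10l1 loci of intron 22: the 320-base MER54A locus (chr15:89029310-89029629, 2.02 ± 0.16), the RLTR20B1 locus (chr15:89046216-89046747, 2.01 ± 0.16) and the IAPLTR2_Mm locus (chr15:89039771-89040260, 2.01 ± 0.16). The 47-base RLTR20C1_MM locus printed above, from the same intron, differed by 1.99 ± 0.16 (adjusted p = 9.57e-12). The MTEa locus of intron 3 (chr15:88992579-88992910), which had the highest mean of the Mov10l1 loci, went from 20.04 ± 3.94 to 66.9 ± 13.1 CPM. Lower in P5 cells were, for example, the MER77B locus of Piwil2 (chr14:70388180-70388284, 102 ± 22.0 to 74.0 ± 16.8 CPM) and the RLTR20A4 locus of Tdrd9 (chr12:112067905-112067969, 80.4 ± 18.7 to 61.1 ± 10.3 CPM).

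The difference held along each gene. Mov10l1 was higher in P5 cells in 10 of 10 introns, with mean levels 3.34 to 3.93 times those of P4 cells. Mael stood at 0.624 and 0.634 of the P4 level in its 2 introns, and Tdrd9 at 0.737 to 0.816 in its 15 introns. None of the other introns tested for the 7 lower members was higher in P5 cells. The introns of Mov10l1 differed among themselves in both populations, with intron 1 the lowest.

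**Figure D2:**
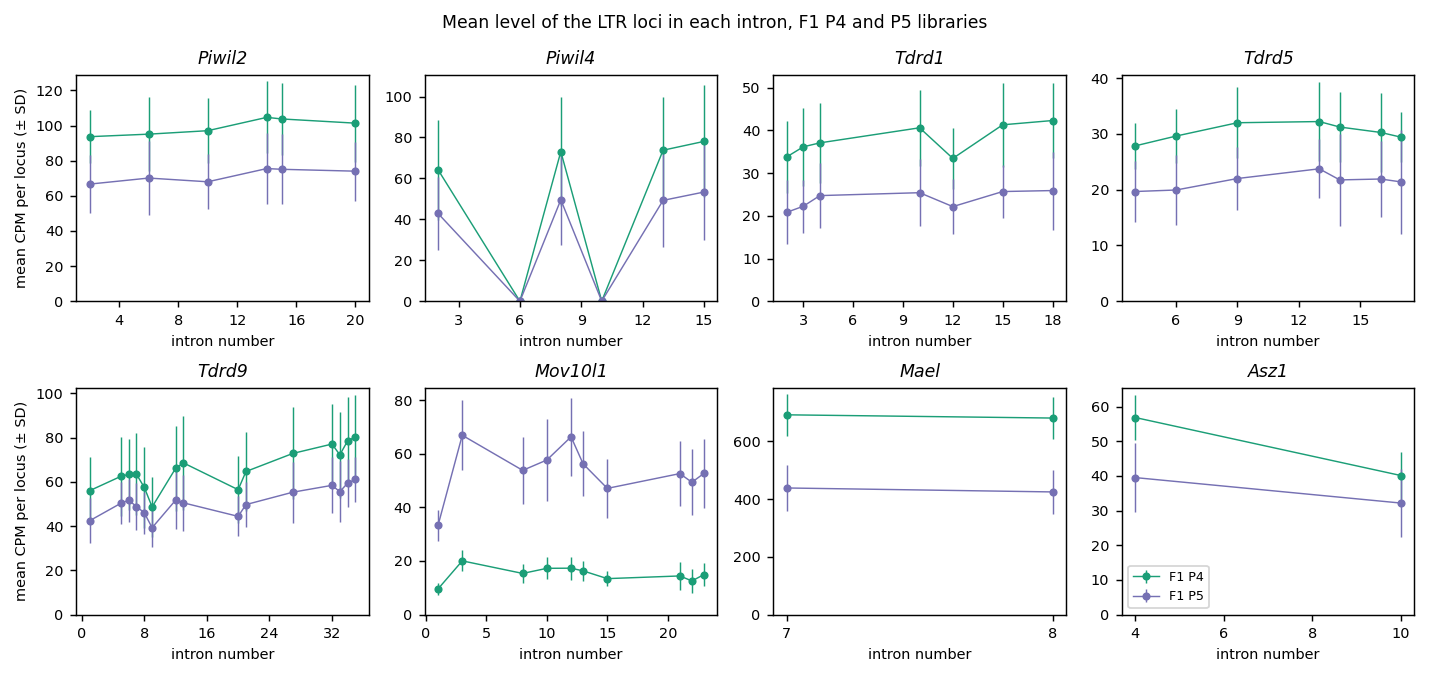
Mean CPM per distinct locus (± SD over libraries) of each intron that held LTR loci, by intron number in transcript order, for F1 P4 (n = 12, green) and F1 P5 (n = 11, purple) libraries. The P5 line lies above the P4 line for Mov10l1 and below it for the other 7 members, and introns 6 and 10 of Piwil4 are at or near 0.

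Of 21 other listed genes of the pathway, 15 had enough reads for the test in F1, and of these 1 was higher in P5 cells, 8 were lower and 6 did not pass, against the 24.5% higher and 18.0% lower of all host genes. Spocd1, which encodes a nuclear partner of PIWIL4 in transposon methylation, was higher in P5 cells (3.89 ± 0.51 on the log2 scale, adjusted p = 2.62e-06), from 0.174 ± 0.1802 CPM per locus in DMSO and 0.191 ± 0.145 in TBT libraries of P4 cells to 1.54 ± 0.899 and 3.10 ± 0.891. Its lowest P5 library (0.960 CPM) was above its highest P4 library (0.422 CPM), at levels far below those of the members. The 8 lower ones included Fkbp6, which encodes a co-chaperone (-0.61 ± 0.12, adjusted p = 0.000418), and Ddx4, which encodes a germ cell RNA helicase (-0.53 ± 0.08, adjusted p = 1.12e-05). All 3 germ cell markers were lower in P5 cells too (-0.61 to -0.53), and of 12 somatic markers tested 3 were higher and 1 lower. The part of the germ cell markers in the fall of the 7 members was not tested.

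In F3, the spread between libraries was larger and no member passed in P5 against P4 cells (0 of 8 with limma, 1 at an unadjusted p under 0.05, against 14.2% of the host genes). It was also 0 of 8 with the quasi-likelihood test of edgeR, its likelihood ratio test and DESeq2, which called 2.95%, 7.53% and 7.24% of the host genes. The limma background was 1.87% of the host genes higher and 0.0% lower, and P4 and P5 libraries did not overlap for 0 of 8 members, against 0.324%. Mov10l1 had 8.26, 9.81, 13.9 and 18.3 CPM per locus in DMSO libraries of P4 cells and 0, 4.25, 12.8, 16.1 and 23.1 in TBT libraries. In P5 cells it had 9.64, 12.4, 62.2 and 71.0 CPM in DMSO libraries and 5.81, 30.6, 32.8, 62.8 and 68.3 in TBT libraries. The low P5 values came from DMSO libraries 1 and 2 and TBT library 5, which are among those with over 10% of reads outside genes. The difference was 2.28 ± 1.09 on the log2 scale (adjusted p = 0.349), and the P5 mean was higher in 10 of 10 introns (2.85 to 4.79 times). Mael and Asz1 had a lower P5 mean in each of their 2 introns, whereas the P5 mean was the higher one in 5 of 6 introns of Piwil2, 9 of 15 of Tdrd9 and 1 of 7 of Tdrd1. Without the libraries with over 10% of reads outside genes, the P5 mean was higher in 10 of 10 introns of Mov10l1 (3.78 to 7.10 times), 6 of 6 of Piwil2, 13 of 15 of Tdrd9, 7 of 7 of Tdrd1, 4 of 7 of Tdrd5 and 1 of 4 of Piwil4, and in none of those of Mael and Asz1.

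Without the 7 libraries with over 10% of reads outside genes, a setting chosen after seeing the data, 7 P4 and 4 P5 libraries remained and 3 of 8 members passed, against 9.55% of the host genes. Mov10l1 was higher in P5 cells by 2.22 ± 0.24 (adjusted p = 0.00265), Mael was lower (-0.95 ± 0.16, adjusted p = 0.0127) and Asz1 was lower (-0.78 ± 0.19, adjusted p = 0.0307). Without the libraries under 2000000 reads Mov10l1 (1.55 ± 0.38, adjusted p = 0.0230) and Mael (-1.15 ± 0.25, adjusted p = 0.0124) passed, against 9.59%. Piwil2, Piwil4, Tdrd1, Tdrd5 and Tdrd9 did not keep their direction over these settings. Piwil2, for example, stood at 0.55 ± 1.35 with all libraries and at -0.40 ± 0.70 without the libraries under 2000000 reads. Of the single member loci 0 of 129 passed in F3 (4 at an unadjusted p under 0.05, against 10.5% of all loci), where 0.985% of all loci were higher and 0.0112% lower. By the quasi-likelihood test of edgeR 0 passed, against 5.36%, and by its likelihood ratio test 1 passed, against 7.9%. Spocd1 was the only listed gene of the pathway past the threshold with all libraries (4.04 ± 0.91, adjusted p = 0.0289). Its F3 germline libraries ranged from 0 to 3.04 rpm per locus, with a median of 0. It did not pass the filter within F3 P4 cells and so entered mainly through its P5 reads. The size of its difference depends on the pseudocount.

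**Figure D3:**
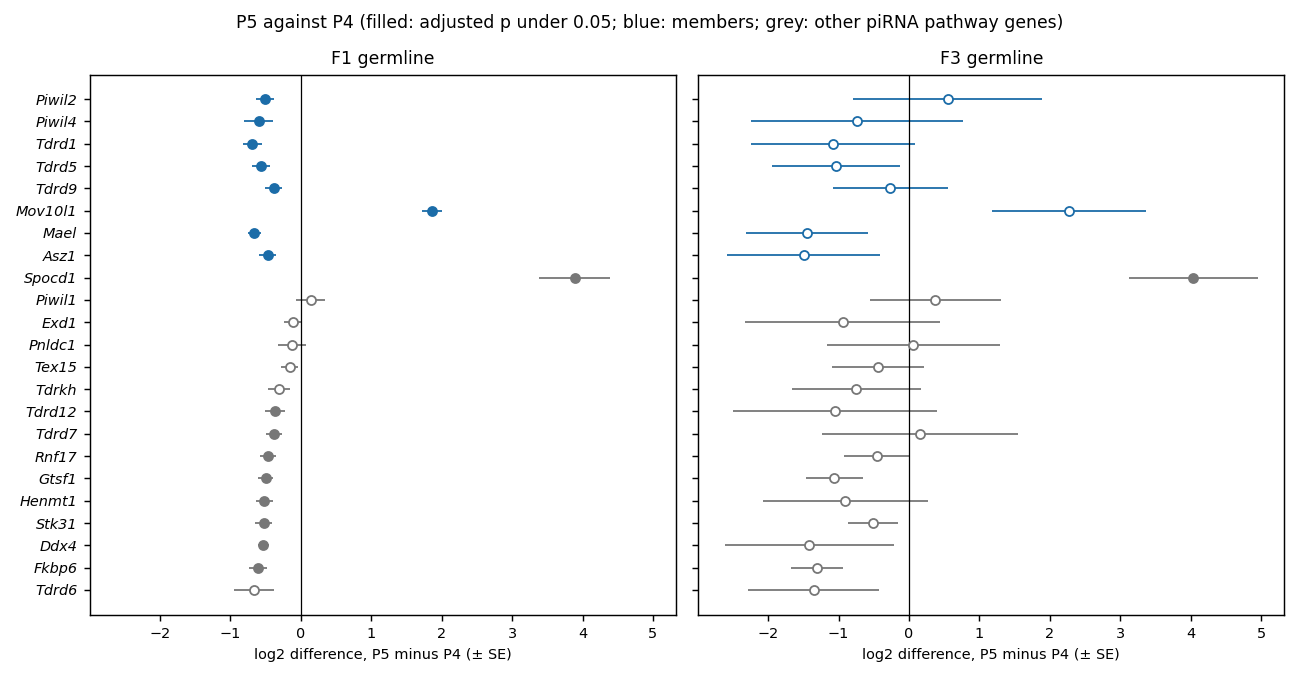
Log2 difference of the summed LTR reads of each gene, P5 minus P4 cells (± SE, limma), in F1 (left) and F3 (right); blue points are the 8 members, grey points other piRNA pathway genes, and filled points passed an adjusted p of 0.05. In F1 Mov10l1 (1.87) and Spocd1 (3.89) lie to the right of 0 and the other filled points to the left; in F3 Spocd1 alone is filled.

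The levels of the members were also compared over the 41 germline libraries, after centring each generation on its own mean. These correlations are descriptions over libraries that share depth and the contrast of P4 and P5. In F1, pairs of members other than Mov10l1 had r between 0.52 and 0.97, whereas Mov10l1 had r between -0.77 (Mael) and -0.23 (Tdrd9) with them. In F3, pairs of members other than Mov10l1 had r between 0.51 and 0.97, and Mov10l1 had r between 0.27 (Asz1) and 0.89 (Piwil2). Signs changed in the 11 F3 libraries with at most 10% of reads outside genes, where Mov10l1 had r of -0.89 with Mael and -0.84 with Asz1 and between 0.23 (Piwil4) and 0.64 (Piwil2) with the others, and the other pairs ran from -0.59 (Piwil2 and Mael) to 0.98 (Piwil2 and Tdrd1). Among the 9912 host genes with a mean of at least 20 units in both generations, and leaving out the listed genes, the pattern of Mov10l1 was most like that of Kit, which encodes the receptor of stem cell factor (r = 0.95 in F1, 0.96 in F3), and of Dnajc10 (r = 0.96 and 0.94). Piwil4 was most like Gm10706 (r = 0.996 over all 41), which shares its loci, and Cog4 (0.99). Stag3 and Stau1 were nearest to Piwil2 (0.98 and 0.97), Dennd5a and Kansl1 to Tdrd1 (0.98 and 0.97), and Dcaf12 and Psmd2 to Tdrd5 (0.98 and 0.97). Pik3c3 and Eif3b were nearest to Tdrd9 (0.97 each), Suclg1 and Prmt1 to Mael (0.99 each), and Dcaf13 and Lancl1 to Asz1 (0.99 each). Over the F1 libraries alone r was 0.91 for Stag3 and 0.76 for Stau1, 0.99 for Gm10706 and 0.94 for Cog4, 0.90 for Dennd5a and Kansl1, 0.89 for Dcaf12 and 0.92 for Psmd2, 0.78 for Pik3c3 and 0.82 for Eif3b, 0.97 for Suclg1 and 0.91 for Prmt1, and 0.93 for Dcaf13 and 0.83 for Lancl1. Over the 11 F3 libraries r between each member and its nearest genes was 0.79 (Piwil2 and Stau1) to 0.99 (Piwil4 and Gm10706), with 0.92 for Kit and 0.97 for Dnajc10.

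Next, TBT and DMSO were compared within each population to ask whether exposure of the F0 dams went with a change in these genes. In F1 P4 cells no member passed (0 of 8, with 2 at an unadjusted p under 0.05), against 0.0% of the host genes (6.92% at an unadjusted p under 0.05). No member passed with the quasi-likelihood test of edgeR, its likelihood ratio test or DESeq2, which called 0.0%, 0.0964% and 0.126% of the host genes. All 8 had a higher mean in TBT libraries, by 0.07 to 0.43 on the log2 scale (median 0.27, against 0.01 for all host genes tested). The somatic markers summed to 67.0 to 267 rpm (median 142) in DMSO and 53.2 to 112 rpm (median 67.7) in TBT libraries of these cells, and none of the 15 was at 0 in a whole group. None of the 10 with enough reads passed, with Cyp11a1, a steroidogenic enzyme of Leydig cells, at -2.13 ± 0.71 (adjusted p = 0.713). The germ cell markers summed to 1815 to 1977 rpm in DMSO and 1560 to 2180 rpm in TBT libraries. The part of other cell types in the difference was not tested. Tdrd9 had the lowest p, with 41.9, 44.8, 60.9, 68.7 and 69.6 CPM per locus in DMSO and 53.8 to 112 (median 76.7) in TBT libraries. The groups overlapped, and the difference was 0.43 ± 0.17 (adjusted p = 0.714). Tdrd1 stood at 0.35 ± 0.16 (adjusted p = 0.719), Piwil4 at 0.37 ± 0.24, Mov10l1 at 0.30 ± 0.18, Tdrd5 at 0.25 ± 0.12 and Piwil2 at 0.21 ± 0.15. Mael (0.12 ± 0.09) and Asz1 (0.07 ± 0.11) were closest to 0, and with a common total Asz1 was at -0.003346. The 15 other piRNA pathway genes tested also had positive values, with Henmt1 (0.27 ± 0.13), which encodes the piRNA methyltransferase, and Stk31 (0.27 ± 0.13) at the lowest p (adjusted p = 0.719 for each). Of the member loci 0 of 129 passed (56 at an unadjusted p under 0.05), against 0.0% of all loci (7.09% at an unadjusted p under 0.05), and 0 with the 2 tests of edgeR, against 0.00109% and 0.0939%.

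In F1 P5 cells 0 of 8 members passed, with 1 at an unadjusted p under 0.05, against 0.0% of the host genes (8.12% at an unadjusted p under 0.05). The same 3 other tests called 0 members, against 0.0%, 0.41% and 0.398% of the host genes. The somatic markers summed to 91.6 to 194 rpm (median 164) in DMSO and 76.1 to 138 rpm (median 132) in TBT libraries, and the germ cell markers to 1349 to 1561 and 1324 to 1579 rpm, with none at 0 in a whole group. Of the 13 somatic markers tested 0 passed and 3 had an unadjusted p under 0.05, Dhh at -1.66 ± 0.50 (adjusted p = 0.376), Gata4 at -0.78 ± 0.31 (adjusted p = 0.526) and Adgre1 at 1.77 ± 0.81 (adjusted p = 0.605). The part of other cell types in the differences of the members was not tested. Tdrd9 again had the lowest p. It had 39.7, 40.7, 41.1 and 54.1 CPM per locus in DMSO and 41.1 to 74.9 (median 60.9) in TBT libraries, a difference of 0.38 ± 0.16 (adjusted p = 0.561). Tdrd1 (0.30 ± 0.22), Piwil2 (0.28 ± 0.19), Tdrd5 (0.25 ± 0.21), Piwil4 (0.23 ± 0.30) and Mov10l1 (0.15 ± 0.19) had positive values, and Mael (-0.02 ± 0.16) and Asz1 (-0.05 ± 0.21) lay near 0. Among the other pathway genes Spocd1 stood at 1.09 ± 0.32 (adjusted p = 0.376) and Tdrd12 at -0.31 ± 0.24 (adjusted p = 0.796). Of the member loci 0 of 129 passed (29 at an unadjusted p under 0.05), against 0.0106% of all loci (6.89% at an unadjusted p under 0.05), and 0 with the 2 tests of edgeR, against 0.00327% and 0.317%. The TBT difference of the 8 members did not differ between P5 and P4 cells past the threshold (0 of 8, differences of -0.15 to 0.07, none at an unadjusted p under 0.05, against 0.0%), nor with the 3 other tests, which called 0.0%, 0.0618% and 0.00687% of the host genes. It was -0.15 ± 0.28 for Mov10l1, -0.14 ± 0.41 for Piwil4, -0.14 ± 0.18 for Mael, -0.12 ± 0.24 for Asz1 and closer to 0 for Tdrd9, Tdrd1, Tdrd5 and Piwil2. Of the other pathway genes Tex15 (-0.35 ± 0.25) and Tdrd12 (-0.40 ± 0.29) had the lowest p for this difference.

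In F1 P6 cells, 6 of 8 members had enough reads for the test, all at low levels, and 0 of 6 passed, against 0.0256% of the host genes. With the 3 other tests the count was also 0, against 0.00854%, 0.171% and 0.154%, and 3 had an unadjusted p under 0.05, against 4.78% of the host genes. Tdrd9 had 0, 5, 6, 7 and 17 reads in the 5 DMSO libraries, up to 0.118 rpm per locus, and 12 to 33 reads in the 7 TBT libraries, 0.104 to 0.227 rpm per locus. Its difference was 2.01 ± 0.54 on the log2(sum + 1 unit) scale (adjusted p = 0.744). Mov10l1 had 0, 0, 0, 2 and 3 reads in DMSO and 0 to 20 reads in TBT libraries (2.20 ± 0.82, adjusted p = 0.998). Tdrd5 stood at a lower mean in TBT libraries (-0.97 ± 0.42, adjusted p = 0.998), with 0.445 to 1.01 rpm in DMSO and 0.0989 to 0.634 rpm in TBT libraries. Mael (0.70 ± 0.74), Tdrd1 (0.22 ± 0.58) and Piwil2 (-0.0040 ± 0.58) lay within their error. None of the member loci had enough reads to be tested singly, where 0.00341% of all loci passed.

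The germ cell markers, like Tdrd9 and Mov10l1 and unlike Tdrd5 and Asz1, had a higher level in TBT libraries of these somatic cells. Summed over all 8 members the groups overlapped, at 19.8 to 30.0 rpm in DMSO and 21.8 to 33.6 rpm in TBT libraries. The markers summed to 0.590 to 3.01 rpm in the 5 DMSO libraries and 3.09 to 8.88 rpm in the 7 TBT libraries. These ranges nearly met, and all 3 markers were above 0 in some library of each group. Of the marker reads, 136 were of Ddx4 and 14 each of Dazl and Pou5f1. How many host genes are separated in this way was not counted. Ddx4 (1.28 ± 0.46) and Stk31 (1.78 ± 0.66) had the lowest p among the other piRNA pathway genes (adjusted p = 0.998 for each). The part of germline cells in these values was not tested. TBT libraries 7 and 8 had 7.21% and 7.37% of their reads outside genes, where the other 10 F1 P6 libraries had 1.42% to 2.27%. Without these 2 libraries Tdrd9 stood at 2.11 ± 0.62 and Mov10l1 at 1.91 ± 0.95, and 0 of 7 members passed. The share of host genes passing without them is not given here.

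In F3 P4 cells 0 of 8 members passed (none at an unadjusted p under 0.05), against 0.0% of the host genes, and 0 with the 3 other tests, against 0.0%, 0.0145% and 0.0297%. Of the member loci 0 of 129 passed (6 at an unadjusted p under 0.05, against 1.65% of all loci), against 0.0% of the loci, and 0 with the 2 tests of edgeR, against 0.0% and 0.00347%. Mael had 892, 952, 973 and 1035 CPM per locus in DMSO libraries and 58.8, 121, 785, 927 and 1100.0 in TBT libraries. The low values were those of TBT libraries 5 and 9. With all libraries Tdrd5 stood at 0.17 ± 0.78 and the other 7 at negative values, Piwil4 at -2.35 ± 2.02, Mov10l1 at -2.08 ± 1.90, Piwil2 at -1.91 ± 2.17, Mael at -1.43 ± 0.78, Asz1 at -1.14 ± 0.69, Tdrd9 at -0.59 ± 0.86 and Tdrd1 at -0.04 ± 1.06. With the tests of edgeR and DESeq2 4 of 8 were positive, and without those libraries 6 of 8 did, with values from -0.10 (Asz1) to 1.55 ± 0.53 (Piwil2, adjusted p = 0.556), so that no direction can be read from this comparison. Fkbp6 (-0.62 ± 0.19, adjusted p = 0.858) and Pnldc1 (-3.23 ± 1.84, adjusted p = 0.858) had the lowest p among the other pathway genes.

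In F3 P5 cells 0 of 8 members passed as well (none at an unadjusted p under 0.05, and 0 with edgeR and DESeq2), against 0.0% of the host genes by each of these tests. Of the member loci 0 of 129 passed (none at an unadjusted p under 0.05), against 0.0% of the loci with limma, and 0 with the quasi-likelihood and likelihood ratio tests of edgeR, against 0.0% and 3.15%. Mael had 105, 161, 440 and 509 CPM per locus in DMSO and 2.39, 401, 508, 642 and 684 in TBT libraries. The lowest value of each group came from a library named above. Piwil2 had 3.84, 6.07, 57.7 and 82.1 CPM in DMSO and 0.806, 6.30, 26.1, 42.0 and 95.6 in TBT libraries. The differences were -1.43 ± 1.83 for Tdrd1, -0.97 ± 1.91 for Piwil4, -0.91 ± 1.81 for Asz1, -0.73 ± 1.22 for Tdrd9, -0.42 ± 1.35 for Mael, -0.38 ± 1.34 for Piwil2, -0.02 ± 1.48 for Tdrd5 and 0.16 ± 0.88 for Mov10l1. The number of members with a positive difference was 1 of 8 with all libraries, 4 of 8 with the tests of edgeR and DESeq2, 8 of 8 without TBT library 5 alone, 7 of 8 without the libraries under 2000000 reads and 3 of 8 without those with over 10% of reads outside genes. Pnldc1 (1.98 ± 1.48) and Tdrd6 (1.18 ± 1.32) had the lowest p among the other pathway genes, and none of these passed. The difference of the TBT effect between P5 and P4 cells of F3 passed for 0 of 8 members (none at an unadjusted p under 0.05), against 0.0%, and with the 3 other tests for 0 of 8, against 0.0%, 0.0265% and 0.0735%. It ran from -1.42 ± 2.33 (Tdrd1) to 2.22 ± 2.19 (Mov10l1), with Piwil2 at 1.51 ± 2.69, Piwil4 at 1.32 ± 3.01, Mael at 1.01 ± 1.73, Asz1 at 0.20 ± 2.17, Tdrd9 at -0.14 ± 1.63 and Tdrd5 at -0.20 ± 1.82, and with Pnldc1 (5.21 ± 2.46) and Exd1 (2.81 ± 2.77) at the lowest p among the named pathway genes.

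In F3 P6 cells, 7 of 8 members were tested and 0 passed with limma or with edgeR's quasi-likelihood test, against 0.00834% of the host genes. By the likelihood ratio test of edgeR 3 members passed (Piwil4, Tdrd9 and Mael) and by DESeq2 2 (Piwil4 and Tdrd9), each lower in TBT libraries, against 0.459% and 0.594% of the host genes. With limma 4 had an unadjusted p under 0.05, against 8.53%. Mov10l1 had 0.0166, 0.169, 0.938 and 1.17 rpm per locus in DMSO and 0, 0, 0, 0.0137 and 0.158 rpm in TBT libraries (-3.96 ± 1.26, adjusted p = 0.443). Mael had 0, 0.0662, 6.91 and 9.50 rpm in DMSO and at most 0.173 rpm in TBT libraries (-3.41 ± 1.59, adjusted p = 0.592). In both genes the 2 high values were those of DMSO libraries 3 and 4.

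The same libraries stood out for Piwil4 (0.823 and 1.51 rpm, against 0 to 0.146 in the other 7; -3.11 ± 1.24, adjusted p = 0.526) and Tdrd9 (0.885 and 1.505 rpm, against 0.0161 to 0.0927; -2.53 ± 1.07, adjusted p = 0.552). Piwil2 was at -1.19 ± 0.47 (adjusted p = 0.522), Tdrd5 at 0.23 ± 0.39 and Tdrd1 at 0.09 ± 0.89. Summed over all 8 members, DMSO libraries 3 and 4 held 169 and 178 rpm and the other 7 libraries 12.8 to 21.7 rpm. The germ cell markers moved in the same way (22.9 and 33.9 rpm, against 0.831 to 3.71), as shown in the plot of members against germ cell markers. The sum of the 15 somatic markers was 1579 to 1645 rpm in DMSO and 1465 to 1680 rpm in TBT libraries. Of the 14 tested 0 passed and 3 had an unadjusted p under 0.05, with Pdgfra, a marker of stromal cells, at 0.52 ± 0.12 (adjusted p = 0.326), and the steroidogenic enzymes Cyp17a1 at -0.89 ± 0.24 (adjusted p = 0.401) and Cyp11a1 at -0.59 ± 0.20 (adjusted p = 0.483).

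Without these libraries, a setting chosen after seeing the data, Piwil2 stood at -0.55 ± 0.55, Tdrd9 at -0.17 ± 0.78, Mov10l1 at -1.997 ± 1.48, Tdrd5 at 0.75 ± 0.44 and Tdrd1 at 1.80 ± 0.84. None passed, and Piwil4 and Mael fell under the filter on low values. The share of host genes passing in this setting is not given here. Of 7 member loci tested singly, 6 in Mael and 1 in Tdrd9, 0 passed with limma (6 at an unadjusted p under 0.05, against 7.96% of all loci), where 0.0343% of the loci passed. With edgeR 6 passed by the quasi-likelihood test, against 0.062%, and 6 by the likelihood ratio test, against 0.338%. Among the other pathway genes the lowest p were those of Rnf17 (-0.81 ± 0.25, adjusted p = 0.413) and Tdrd12 (-3.01 ± 1.05, adjusted p = 0.498), and 9 of 9 tested had negative values.

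**Figure D4:**
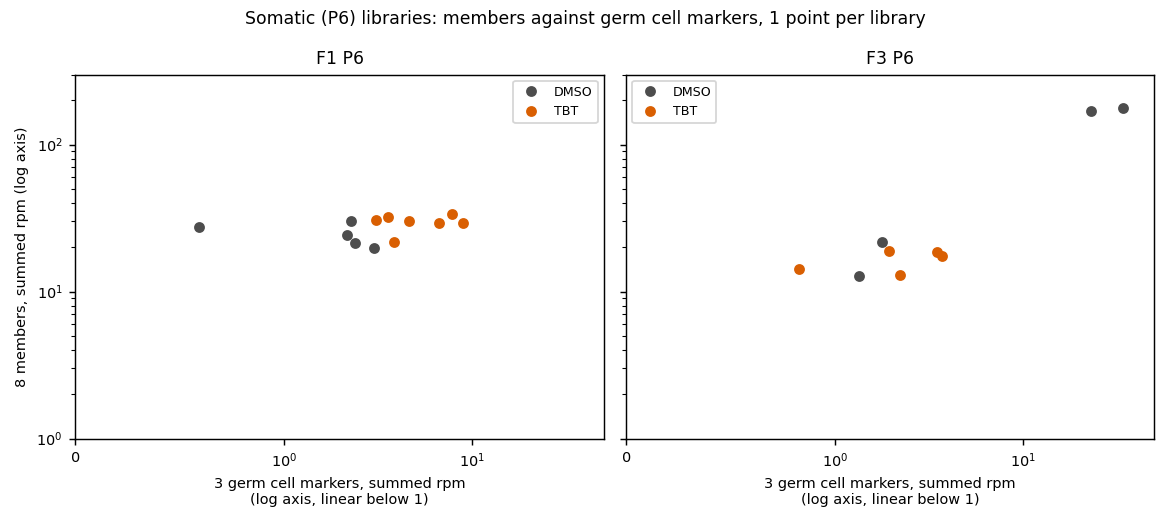
Summed level in rpm (reads per 1000000 LTR reads) of the 8 members against those of 3 germ cell markers (Dazl, Ddx4, Pou5f1), 1 point per P6 library, F1 on the left and F3 on the right, on log axes (the marker axis is linear below 1); grey points are DMSO and orange points TBT libraries. In F3 the 2 DMSO libraries at 169 and 178 rpm of members lie apart at 22.9 and 33.9 rpm of markers. In F1 the marker sums of the groups nearly meet without overlap, and the member sums overlap.

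Generations were set side by side without a test, since their tables were normalized separately. In DMSO libraries of P4 cells Mael had 638 ± 45.05 rpm per locus in F1 (n = 5) and 740 ± 59.8 rpm in F3 (n = 4). Mov10l1 had 12.9 ± 3.84 and 9.75 ± 3.94 rpm. Tdrd9 ranged from 13.6 to 42.8 rpm in F3 and from 42.97 to 67.1 rpm in F1, with no overlap. Piwil2 ranged from 8.42 to 31.2 rpm in F3 and from 67.9 to 102 rpm in F1, Tdrd1 from 2.75 to 14.1 rpm and from 22.01 to 37.6 rpm, and Tdrd5 from 5.24 to 17.5 rpm and from 25.55 to 27.8 rpm, each with no overlap. Piwil4 overlapped, at 7.42 to 47.9 rpm in F3 and 25.3 to 49.9 rpm in F1. Asz1 overlapped, with 50.3 ± 10.7 rpm in F3 and 46.8 ± 2.49 rpm in F1. Among host genes tested in both generations, 18.4% had no overlap between these libraries. The germ cell markers summed to 999 to 1796 rpm in F3 and 1815 to 1977 rpm in F1 in the same libraries. The somatic markers summed to 31.0 to 65.2 rpm in F3, where Dhh, Pdgfra, Kdr and Csf1r were at 0, and to 67.0 to 267 rpm in F1. The part of cell types in the difference between generations was not tested. In the other germline groups 0 of 8 members were without overlap, against 2.76% of the host genes in TBT libraries of P4 cells, 8.34% in DMSO and 1.24% in TBT libraries of P5 cells, and this was also 0 of 8 without the libraries with over 10% of reads outside genes. Tdrd9 in DMSO libraries of P5 cells, for example, ranged from 11.3 to 57.8 rpm in F3 and from 42.1 to 55.9 rpm in F1.

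The first and last introns with LTR loci were set side by side in CPM for the 4 members without overlap. The CPM scales of the generations differ. In DMSO libraries of P4 cells Mael had means of 657 CPM and 638 rpm in F1, and of 963 CPM and 740 rpm in F3. F3 values are thus raised against F1 in CPM, and an overlap of generations here depends on the scale. In intron 1 of Tdrd9 DMSO libraries 1 to 4 of F3 held 5.09, 1.47, 29.5 and 25.9 CPM, and the F1 libraries 32.8 to 61.1 CPM. In intron 35 the F3 libraries held 82.8, 72.4, 96.7 and 69.6 CPM and the F1 libraries 48.04 to 88.9 CPM. For Tdrd5, intron 4 held 0.283, 4.89, 18.9 and 19.2 CPM in F3 and 20.9 to 29.3 CPM in F1, and intron 17 held 23.1 to 25.8 CPM in F3 and 25.6 to 32.02 CPM in F1. Piwil2 and Tdrd1 were low in F3 at both ends. Intron 2 of Piwil2 held 10.2, 21.02, 22.9 and 40.9 CPM in F3 and 76.9 to 105 CPM in F1, and intron 20 held 20.4, 20.1, 49.9 and 35.5 CPM in F3 and 71.3 to 109 CPM in F1. Intron 2 of Tdrd1 held 11.6, 5.87, 18.7 and 17.3 CPM in F3 and 16.8 to 37.1 CPM in F1, and intron 18 held 2.26, 8.31, 23.9 and 17.3 CPM in F3 and 27.4 to 52.4 CPM in F1. The part of RNA quality in the difference between generations was not tested.

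Methylated DNA was measured in P6 cells only, as counts per 100-base window after pull-down with a methyl-binding domain (MBD) protein, in 3 DMSO and 4 TBT libraries of F1 and 5 and 7 of F3. The libraries held 701493 to 1913353 counts in F1 and 1105120 to 1556376 in F3. In F1, 28 windows lay in a member or within 1000 bases before its start, none of them in Piwil2 or Tdrd1, and 0 of the 10 tested passed, against 0.0318% of all windows (edgeR quasi-likelihood test, none at an unadjusted p under 0.05). In F3, 21 windows were found, and 0 of the 11 tested passed, against 0.0%, with 2 at an unadjusted p under 0.05, against 5.19% of all windows. Both lie in Mov10l1: chr15:88997901-88998000 (0.38 on the log2 scale, TBT minus DMSO, adjusted p = 0.943) and chr15:89034601-89034700 (0.69, adjusted p = 0.940).

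The windows of most counts within 1000 bases of a member's start are printed because they are the nearest to a promoter; CpG sites, the targets of methylation, are in capitals, and both are on the plus strand of GRCm38 from RefSeq.
Mov10l1, F1, chr15:88983101-88983200: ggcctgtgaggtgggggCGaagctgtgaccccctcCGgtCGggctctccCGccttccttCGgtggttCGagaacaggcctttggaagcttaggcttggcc
Piwil2, F3, chr14:70429501-70429600: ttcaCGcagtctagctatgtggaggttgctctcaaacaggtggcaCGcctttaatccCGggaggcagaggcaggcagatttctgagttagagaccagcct

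The Mov10l1 window has 6 CpG sites, begins 192 bases after the gene's start in intron 1, and had 304 counts over the 7 F1 libraries. It held 32, 22 and 38 counts in DMSO and 58, 59, 32 and 63 in TBT libraries, which after scaling differed by -0.03 on the log2 scale (adjusted p = 0.997). The Piwil2 window has 3 CpG sites, lies 118 to 217 bases before the gene's start, and had 376 counts over the 12 F3 libraries. Of its bases 63% are marked as repeat in the genome sequence, against 0% of the Mov10l1 window, so that its counts may belong to a repeat. It held 30, 28, 34, 36 and 28 counts in DMSO and 18 to 42 (7 libraries) in TBT libraries, a difference of 0.03 (adjusted p = 0.999). P4 and P5 cells, in which the members had their reads, have no methylation values here.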

How the data were processed

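RNA of 62 libraries and methylated DNA of 19 were analysed. Per the labels, cDNA was made with an oligo-dT primer, and the submitters' processing notes name Trim Galore, STAR, edgeR and the mm10 build. The authors counted reads at RepeatMasker LTR loci with a modified ERVmap and deposited TMM-scaled CPM, a normalized signal, in 4 tables normalized separately. Dividing by the smallest value above 0 recovered whole reads (whole reads recovered, largest deviation 1.25e-05). The MBD tables as deposited hold raw counts in windows of 100 bases and, in an other column, the CpG sites of each window.

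Distinct loci inside each GENCODE gene body were summed and tested with limma 3.58.1 (R 4.3.3, trended variance, pseudocount 1 unit, mean of at least 5 units); MBD counts with edgeR 4.0.16 after TMM. DESeq2 1.42.0, the tests of edgeR, other pseudocounts, filters, scalings, ways of counting loci and left-out libraries were alternatives. Scripts used Python 3.11.15, pandas 2.3.3 and matplotlib 3.10.9, and were tested on simulated data.

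The members and lists were chosen with earlier results of these data known. All members that passed the filter are named in each comparison fitted on their summed RNA levels; of the other pathway genes, up to 2 higher and 2 lower of largest change past the threshold, otherwise the 2 of lowest p; the locus printed for a member is the shortest or of highest mean. Strand use in counting is not given in the sources used here. All table columns matched a sample.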

Additional observations from a re-analysis of the deposited data

Results flagged for a closer look

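A gap between 1 library and the rest of its group was looked for in 96 combinations of member and group, and 9 were found. The limit used is one that about 1 in 20 groups of normally distributed values would pass, a rate not measured here over all host genes, and in P6 cells several groups hold values of 0 and a few reads. Values are mean CPM per distinct locus. In germline cells, Tdrd5 had 30.4 in DMSO library 48-4 of F1 P4 cells (others 25.7 to 26.9), Tdrd9 had 54.1 in DMSO library 48-4 of F1 P5 cells (others 39.7 to 41.1), and Asz1 had 79.5 in DMSO library 3 of F3 P4 cells (others 59.4 to 61.3). In F1 P6 cells, Piwil2 had 0.123 in DMSO library 3 (others 0.383 to 0.441), Piwil4 had 0.334 in TBT library 11 (others 0 to 0.109), and Asz1 had 0.170 in TBT library 10 (others 0). In F3 P6 cells, Tdrd1 had 0.300 in TBT library 7 (others 0.102 to 0.155), Mov10l1 had 0.161 in TBT library 9 (others 0 to 0.0136), and Asz1 had 0.366 in DMSO library 4 (others 0), which is among the libraries with high germ cell markers.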

How the results depend on the processing

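Alternatives changed the test, pseudocount, filter, scaling, counting of loci or set of libraries, 1 at a time. In P5 against P4 cells of F1 all 8 members kept their direction under each alternative run and 8 were called in each, except 7 with a common total (Tdrd9 -0.24). The sets without F3 libraries with over 10% of reads outside genes, without DMSO libraries 3 and 4 of F3 P6 cells, and without loci that overlap another gene were chosen after seeing the data; the last changed no member's call. In F3 P6 cells 3 members were called by the likelihood ratio test of edgeR and 2 by DESeq2, where limma called 0, and 6 member loci by each test of edgeR. In P5 against P4 cells of F3 2 members were called without libraries under 2000000 reads, 3 without those with over 10% of reads outside genes, and 1 locus by the likelihood ratio test. Sign changes of the members' log2 differences follow, where QL and LR are the quasi-likelihood and likelihood ratio tests of edgeR, shallow libraries are those under 2000000 reads and off-gene libraries those with over 10% of reads outside genes. For TBT minus DMSO in F1 P4 cells the sign changed with a common total for Asz1 (-0.0033). For TBT minus DMSO in F1 P5 cells the sign changed with QL for Mael (0.0068) and Asz1 (0.011), with LR for Mael (0.0068) and Asz1 (0.011), with DESeq2 for Mael (0.0068) and Asz1 (0.011). Leave-one-out ranges were -0.10 to 0.033 (Mael) and -0.16 to 0.043 (Asz1). For TBT minus DMSO in F1 P6 cells the sign changed with QL for Piwil2 (0.31), with LR for Piwil2 (0.31), with DESeq2 for Piwil2 (0.31), with a pseudocount of 4 units for Piwil2 (0.041), with median-ratio scaling for Piwil2 (0.011). Without 1 library the values ran from -0.33 to 0.35 (Piwil2), -0.12 to 0.49 (Tdrd1) and -0.0094 to 1.17 (Mael). For TBT minus DMSO in F3 P4 cells the sign changed with QL for Piwil2 (0.74), Tdrd1 (0.60) and Tdrd9 (0.12), with LR for Piwil2 (0.74), Tdrd1 (0.60) and Tdrd9 (0.12), with DESeq2 for Piwil2 (0.74), Tdrd1 (0.60) and Tdrd9 (0.12), with a common total for Tdrd1 (0.36), with median-ratio scaling for Tdrd1 (0.41), with no shallow libraries for Piwil2 (1.55), Piwil4 (0.81), Tdrd1 (1.48), Tdrd9 (0.84) and Mov10l1 (0.49), with no off-gene libraries for Piwil2 (1.55), Piwil4 (0.81), Tdrd1 (1.48), Tdrd9 (0.84) and Mov10l1 (0.49). Ranges without 1 library were -2.97 to 0.28 (Piwil2), -0.60 to 0.61 (Tdrd1) and -0.18 to 0.62 (Tdrd5). For TBT minus DMSO in F3 P5 cells the sign changed with QL for Tdrd5 (0.29), Mael (0.56) and Asz1 (0.62), with LR for Tdrd5 (0.29), Mael (0.56) and Asz1 (0.62), with DESeq2 for Tdrd5 (0.29), Mael (0.56) and Asz1 (0.62), with a pseudocount of 4 units for Tdrd5 (0.049), with a common total for Tdrd5 (0.080), with median-ratio scaling for Tdrd5 (0.021), with 1 locus per intron for Tdrd5 (0.28) and Mov10l1 (-0.062), with no shallow libraries for Piwil2 (0.12), Piwil4 (0.20), Tdrd5 (0.47), Tdrd9 (0.15), Mael (0.73) and Asz1 (0.60), with no off-gene libraries for Tdrd5 (0.18), Mov10l1 (-0.021), Mael (0.10) and Asz1 (0.068). Leave-one-out ranges were -1.13 to 0.64 (Piwil2), -1.79 to 1.00 (Piwil4), -2.28 to 0.14 (Tdrd1), -0.87 to 1.31 (Tdrd5), -1.23 to 0.54 (Tdrd9), -0.33 to 0.76 (Mov10l1), -0.89 to 1.14 (Mael) and -1.62 to 1.11 (Asz1). For TBT minus DMSO in F3 P6 cells the sign changed with QL for Tdrd1 (-0.83), with LR for Tdrd1 (-0.84), with DESeq2 for Tdrd1 (-0.85), with a pseudocount of 4 units for Tdrd1 (-0.18), with 1 locus per intron for Tdrd1 (-0.046). Without 1 library the values ran from -0.89 to 0.87 (Tdrd1) and -0.076 to 0.44 (Tdrd5). For P5 minus P4 cells of F3 the sign changed with a common total for Tdrd9 (0.052), with median-ratio scaling for Tdrd9 (0.075), with no shallow libraries for Piwil2 (-0.40), with no off-gene libraries for Piwil4 (0.052), Tdrd1 (0.72), Tdrd5 (0.14) and Tdrd9 (0.45). Ranges without 1 library were -0.54 to 1.07 (Piwil2), -1.76 to 0.27 (Piwil4) and -0.56 to 0.37 (Tdrd9). For the TBT effect in P5 minus P4 cells of F1 the sign changed with median-ratio scaling for Tdrd5 (-0.041), with 1 locus per intron for Tdrd5 (-0.016), with the replicate block for Tdrd1 (0.0055) and Tdrd9 (0.047). Leave-one-out ranges were -0.017 to 0.24 (Piwil2), -0.30 to 0.057 (Piwil4), -0.17 to 0.11 (Tdrd1), -0.13 to 0.12 (Tdrd5) and -0.14 to 0.048 (Tdrd9). For the TBT effect in P5 minus P4 cells of F3 the sign changed with QL for Piwil2 (-0.87) and Piwil4 (-0.19), with LR for Piwil2 (-0.87) and Piwil4 (-0.19), with DESeq2 for Piwil2 (-0.87) and Piwil4 (-0.19), with a pseudocount of 0.25 units for Asz1 (-0.20), with a common total for Asz1 (-0.55), with median-ratio scaling for Asz1 (-0.65), with 1 locus per intron for Tdrd5 (0.11), with no shallow libraries for Piwil2 (-1.43), Piwil4 (-0.61) and Mov10l1 (-0.23), with no off-gene libraries for Piwil2 (-1.67), Piwil4 (-1.33) and Mov10l1 (-0.51). Without 1 library the values ran from -0.66 to 2.57 (Piwil2), -0.71 to 3.34 (Piwil4), -2.31 to 0.18 (Tdrd1), -1.05 to 1.14 (Tdrd5), -0.73 to 1.13 (Tdrd9) and -0.52 to 2.25 (Asz1). Without TBT library 5 of F3 P5 cells all 8 members had a positive TBT difference (0.14 to 1.31), where 1 of 8 had one with all libraries, and in F3 P4 cells the number went from 1 to between 0 and 3. Leaving out 1 library kept the number of members called in each comparison. Piwil2 in P5 minus P4 cells of F3 was negative without P4 TBT library 5, and Piwil4 and Tdrd9 were positive without P5 TBT library 5. The cause of these changes was not tested. Over all host genes, P5 against P4 cells of F3 gave 283 calls, and between 118 (mean of at least 20 units) and 1492 (without libraries under 2000000 reads) under the alternatives: 445 by the quasi-likelihood test, 1138 by the likelihood ratio test, 1083 by DESeq2, 188 with a pseudocount of 0.25 units, 184 with no filter, 472 with a common total, 513 with median-ratio scaling and 1421 without libraries with over 10% outside genes. For TBT, the likelihood ratio test and DESeq2 called 13 and 15 host genes in F1 P4, 65 and 63 in F1 P5, 20 and 18 in F1 P6, 2 and 4 in F3 P4, and 55 and 71 in F3 P6 cells, where limma called 0, 0, 3, 0 and 1. Of the MBD windows of F1 11 passed, 0 with no filter and 0 to 12 without 1 library, with no member window in any setting. P4 and P5 libraries share label numbers, and the labels do not say whether a number stands for 1 fetus. Correlations of same-numbered libraries' deviations over all host genes ran from -0.0165 to 0.202 in F1, best with the own number in 5 of 11. In F3 they ran from -0.101 to 0.386, best in 3 of 9. Such matches, and the smaller SE with a block given below, are what pairing would give. Other sources of likeness were not tested, and the main fits left pairing out. Among same-numbered libraries of F1 the 7 lower members were lower in P5 cells in 11 of 11 pairs and Mov10l1 in 0 of 11, where 10.2% of the host genes tested were lower in all pairs and 10.4% in none. In F3 Mael was lower in 8 of 9 pairs, Piwil4, Tdrd5 and Asz1 in 7, Tdrd1 and Tdrd9 in 5, Piwil2 in 4 and Mov10l1 in 1, in CPM. With the number as a replicate block, P5 against P4 cells gave 6765 calls in place of 6200 in F1, with 8 of 8 members (SE of Piwil2 0.054 in place of 0.13, of Piwil4 0.055 in place of 0.20), and 477 in place of 283 in F3, with 0 members, and 0 members differed in the TBT effect between populations. Reads per library ran down to 246520 in F3 germline cells.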

Other observations

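Levels along the gene were compared as the ratio of the last to the first intron with LTR loci, in the F1 libraries, all of which held at least 20 reads in the first. Tdrd9, whose introns 1 and 35 were compared, had a ratio of 1.46 ± 0.17 (SD, n = 12) in F1 P4 cells and 1.47 ± 0.18 (n = 11) in F1 P5 cells. In F3 P4 cells the mean level of intron 1 was 18.3 ± 19.0 CPM and that of intron 35 was 74.3 ± 17.5 CPM (n = 9), and in F3 P5 cells 20.8 ± 22.1 and 62.5 ± 30.05 CPM (n = 9). Without the libraries with over 10% of reads outside genes, intron 1 had 23.0 ± 19.11 CPM and intron 35 81.7 ± 9.75 CPM in F3 P4 cells (n = 7), and 42.4 ± 13.4 and 70.1 ± 7.84 CPM in F3 P5 cells (n = 4). Mov10l1 had 1.57 ± 0.37 in F1 P4 and 1.57 ± 0.20 in F1 P5 cells. Asz1 fell toward its end, with 0.708 ± 0.101 and 0.812 ± 0.126, and Mael was even, with 0.984 ± 0.022 and 0.969 ± 0.017. The other members had 1.08 ± 0.11 and 1.12 ± 0.10 (Piwil2), 1.24 ± 0.15 and 1.25 ± 0.15 (Piwil4), 1.28 ± 0.19 and 1.29 ± 0.31 (Tdrd1), and 1.07 ± 0.18 and 1.08 ± 0.21 (Tdrd5). The generations were not tested against each other.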
